A study of Mus musculus with 4 samples.

Results

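RNA of 10 enzymes of glucose breakdown was followed through mouse testis development: 4 germ cell isozymes (LDHC, PGK2, GAPDHS and PDHA2) and 6 somatic forms (LDHA, LDHB, PGK1, GAPDH, PDHA1 and ALDOA). The members were taken by name, and all 10 were found among the 112302 entries of the deposited tables. The tissue was testis of BALB/C mice, sampled before birth on embryonic days 14 (E14) and 18 (E18) and after birth at the ages of 3 weeks and 6 months, with 1 RNA sequencing library for each. No allele or agent is named in the labels, the RNA came from a commercial supplier, and the number of animals behind each library is not given in the sources used here. With 1 library a stage there is no replicate check, no difference was tested, and every interval below covers counting error only.

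Glycolysis turns glucose into pyruvate, which is then either reduced to lactate by lactate dehydrogenase or fed into the mitochondrion by the pyruvate dehydrogenase complex. Mammalian spermatogenic cells replace several of these enzymes with forms of their own, and sperm use glycolysis along the tail for motility. In mouse, PGK2 and PDHA2 are autosomal genes without introns that arose as retrocopies of PGK1 and PDHA1, which lie on the X chromosome, a chromosome that is silenced in male meiosis.

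Levels are given in RPKM, which are reads divided by gene model length and library size. This adjusts for length and depth alone. Comparisons between libraries still depend on how the libraries are scaled. Those between genes depend on the gene model lengths used and on reads that near-identical copies may share. The deposited values of the genes used here were whole multiples of 1 read, and between 33952471 and 38903334 reads stood behind each library. A difference between stages is that of log2(RPKM + 1), later minus earlier, and is called higher or lower where it was at least 2-fold (1 on the log2 scale). The cell type markers of the libraries differed. All 14 spermatocyte markers were at 1 RPKM or more at 3 weeks and at 6 months, against 3 of 14 at E18 and 0 of 14 at E14, with summed levels of 3.19, 10.6, 703 and 446 RPKM at E14, E18, 3 weeks and 6 months. The 12 elongating spermatid markers summed to 2.91, 3.73, 182 and 7558 RPKM over the same stages, and 0, 0, 8 and 12 of them reached 1 RPKM. The E14 library went against its label in part, since 3 of 12 Sertoli cell markers reached 1 RPKM there and RHOX8 and FSHR were at 0, while liver, skeletal muscle and red cell markers summed to 307, 203 and 4897 RPKM. The later libraries held markers of other tissues too. Kidney, skeletal muscle and liver markers summed to 47.2, 47.3 and 64.9 RPKM at E18, and 6 epididymis markers to 66.4 RPKM at 3 weeks, against 1.28 RPKM at E18.

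The germ cell lactate dehydrogenase, LDHC, was near absent before birth and among the most abundant messages of the testis after it. Its level was 0.244 RPKM at E14 (15 reads, exact Poisson 95% interval 0.137 to 0.402), 0.259 RPKM at E18 (14 reads, 0.142 to 0.434), 227 RPKM at 3 weeks (223 to 231) and 319 RPKM at 6 months (314 to 323). By level its place among 20462 protein-coding symbols, counted from the highest, was 12998, 13143, 24 and 19 at E14, E18, 3 weeks and 6 months. LDHC was 876-fold higher at 3 weeks than at E18 (95% Clopper-Pearson interval 522 to 1602), and 1.41-fold higher at 6 months than at 3 weeks (1.37 to 1.44). The E14 and E18 levels could not be told apart at this depth. In such whole-tissue samples, more cells of a type and more RNA per cell cannot be told apart, and the part that the spermatocyte and spermatid markers above have in the rise was not tested.

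LDHA, the muscle-type subunit that favours lactate formation, was well expressed at every stage, and LDHB, the heart-type subunit, was most abundant at E18. LDHA stood at 39.1, 37.2, 61.2 and 96.8 RPKM at E14, E18, 3 weeks and 6 months, and its steps of 0.70 (3 weeks minus E18) and 0.65 (6 months minus 3 weeks) on the log2 scale did not reach 2-fold. LDHB stood at 13.3, 35.4, 23.2 and 16.9 RPKM over the same stages. It was 2.67-fold higher at E18 than at E14 (95% interval 2.45 to 2.90), the single member called between those libraries, and its later steps of -0.59 and -0.43 were below 2-fold. At E18 against E14, 6 of 6 kidney markers and 9 of 12 Sertoli cell markers were higher too. So were 6 of 10 stroma and contractile cell markers, where 2.17% of all entries that reached 1 RPKM in at least 1 library were higher. The sums of these 3 lists were 47.2, 122 and 1030.3 RPKM at E18, against 3.01, 11.0 and 331 RPKM at E14. Most kidney markers reached 1 RPKM at E18 alone, and RHOX8 and FSHR were at 0 at E14. Those could not be lower at E18, so their calls are no support. The part of these cells in the rise of LDHB was not tested. LDHB and LDHA therefore had different orders over the stages, LDHA with its 2 highest levels after birth and LDHB with its 2 highest at E18 and 3 weeks. No pseudogene entry aligned to LDHA at 95% identity or more, though 14 did at 80% or more. Of these, LDHA-PS2 (94.5% identity) stood at 6.27, 6.52, 10.8 and 14.9 RPKM over the stages. Whether it shares reads with LDHA cannot be told from RPKM. The 1 copy of LDHB at 95% identity or more, GM5514, is taken up with the ratios of LDHC, and the LDHB entry held 86.2%, 85.8%, 83.3% and 86.6% of the reads of both at the 4 stages.

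In mouse, Ldhc lies on the same strand of chromosome 7 as Ldha (build mm10, Ldhc at chr7:46861203-46878142 and Ldha at chr7:46841475-46855627), and the start of Ldhc is 5576 bases past the end of Ldha. The coding sequences shared 73.7% of aligned bases between LDHC and LDHA, 65.4% between LDHC and LDHB, and 73.0% between LDHB and LDHA. Bases 91 to 180 of the LDHA coding sequence are shown with the aligned stretch of LDHC, to show how far apart neighbours with such unlike levels are in sequence. Capitals mark the 29 of 90 bases at which LDHC differs from LDHA (GENCODE transcripts of mm10).
LDHC: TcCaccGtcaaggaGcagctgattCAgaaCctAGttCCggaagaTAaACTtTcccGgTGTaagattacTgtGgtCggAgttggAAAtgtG
LDHA: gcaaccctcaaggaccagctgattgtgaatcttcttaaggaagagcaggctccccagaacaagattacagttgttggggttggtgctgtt

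Within each library the ratio of LDHC to a somatic partner does not depend on how libraries are scaled against each other. LDHC stood 160.3-fold below LDHA at E14 (95% interval 97.1 to 287) and 144-fold below it at E18 (85.6 to 263). It stood 3.71-fold above LDHA at 3 weeks (3.59 to 3.82) and 3.29-fold above it at 6 months (3.21 to 3.37). At 3 weeks this rested on 12159 reads of LDHC and 6368 of LDHA, over model lengths of 1580 and 3066 bases. The intervals do not cover the choice of these lengths. Against LDHB, LDHC was 54.5-fold lower at E14, 137-fold lower at E18, 9.76-fold higher at 3 weeks (9.20 to 10.4) and 18.8-fold higher at 6 months (17.6 to 20.1). With the reads of GM5514 added to LDHB, those last ratios were 8.13 and 16.3. The change of order thus lay between E18 and 3 weeks for both partners.

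PGK2, the germ cell phosphoglycerate kinase, was also near absent before birth, but most of its level came after 3 weeks. It gave 0.129 RPKM at E14 (8 reads, 0.0558 to 0.255), 0.0551 RPKM at E18 (3 reads, 0.0114 to 0.161), 43.1 RPKM at 3 weeks (41.4 to 44.9) and 231 RPKM at 6 months (227 to 235). Its place among 20462 protein-coding symbols was 14132, 16003, 211 and 33 at these stages. PGK2 at 3 weeks over PGK2 at E18 gave a ratio of 784 (95% interval 268 to 3803), a wide interval because E18 held 3 reads. At 6 months it was a further 5.35-fold higher than at 3 weeks (5.12 to 5.60).

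PGK1, the somatic phosphoglycerate kinase on the X chromosome, ran the other way. It stood at 11.2, 10.4, 1.40 and 1.15 RPKM at E14, E18, 3 weeks and 6 months, high in both fetal libraries and low in both postnatal ones. PGK1 fell at 3 weeks to 0.136 of its E18 level (95% interval 0.110 to 0.166), while 6 months over 3 weeks gave 0.815 (0.610 to 1.09). PGK2 was 87.1-fold below PGK1 at E14 (44.0 to 202) and 188-fold below it at E18 (64.2 to 915), then 30.7-fold above it at 3 weeks (25.3 to 37.6) and 202-fold above it at 6 months (164 to 250).

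The values of PGK1 carry an uncertainty of their own, since identical copies of its coding sequence have entries too. PGK1-RS7 on chromosome 12 and GM5537 on chromosome 3 were 100% identical to PGK1 over their coding alignment, and the PGK1 entry held 26.0%, 26.6%, 26.0% and 25.1% of the reads of these 3 entries at E14, E18, 3 weeks and 6 months. PGK1-RS7 was listed at 20.6, 17.9, 2.60 and 2.40 RPKM and GM5537 at 21.7, 20.0, 2.68 and 2.10 RPKM, so both kept the pattern of PGK1 at a higher level. How multiply mapped reads were assigned is not given in the sources used here, and one read may be counted at several entries. With the reads of both copies added to PGK1, PGK2 was 8.0-fold above it at 3 weeks (7.20 to 8.90) and 50.7-fold above it at 6 months (45.7 to 56.4), and the copies and PGK1 together fell at 3 weeks to 0.138 of the E18 level. PGK2 itself shares 79.3% of its coding bases with PGK1. Bases 31 to 120 of the coding sequence show this, with capitals at the 20 of 90 bases where PGK2 differs from PGK1; PGK1-RS7 and GM5537 have the letters of PGK1 throughout this stretch.
PGK2: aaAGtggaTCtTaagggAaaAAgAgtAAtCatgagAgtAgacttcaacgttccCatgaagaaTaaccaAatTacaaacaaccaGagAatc
PGK1: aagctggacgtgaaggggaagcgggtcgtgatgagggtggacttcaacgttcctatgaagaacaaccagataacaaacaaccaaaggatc

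GAPDHS, the glyceraldehyde-3-phosphate dehydrogenase of spermatids and sperm, was the late member of the set. It stood at 1.47 RPKM at E14 (93 reads), 1.50 RPKM at E18 (84 reads), 2.73 RPKM at 3 weeks (151 reads, 2.31 to 3.20) and 162 RPKM at 6 months (159 to 166). GAPDHS at 3 weeks was 1.81-fold its E18 level (95% interval 1.38 to 2.40), which gave 0.57 on the log2(RPKM + 1) scale and was not called. At 6 months it was 59.5-fold higher than at 3 weeks (50.7 to 70.3), and its place among protein-coding symbols was 60, against 5856 at 3 weeks. Over the same stages the elongating spermatid markers above had their largest summed level at 6 months, and their part in this rise was not tested. An antisense gene, GM26935, overlaps GAPDHS and stayed between 0.693 and 1.13 RPKM in all 4 libraries. Reads of the overlap cannot be told apart unless strand was used in counting, which bears most on the low levels of GAPDHS up to 3 weeks.

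The GAPDH entry, the somatic form, showed the same split between fetal and postnatal libraries as PGK1. Its level was 8.52, 7.62, 1.24 and 1.06 RPKM at E14, E18, 3 weeks and 6 months. IFFO1, at 1.69, 1.07, 3.94 and 3.62 RPKM over the stages, overlaps the end of GAPDH on the opposite strand, with the same limit on telling reads apart. GAPDH fell at 3 weeks to 0.163 of its E18 level (95% interval 0.132 to 0.200), and 6 months over 3 weeks gave 0.852 (0.641 to 1.13). By the entry alone, GAPDHS was 5.82-fold below GAPDH at E14 and 5.06-fold below it at E18, 2.20-fold above it at 3 weeks (1.71 to 2.84) and 154-fold above it at 6 months (126 to 190).

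That 3-week ratio turned with the treatment of GAPDH pseudogenes. The tables hold 63 pseudogene entries that align to GAPDH at 95% identity or more over at least 80% of their length, and the GAPDH entry held 5.63%, 5.50%, 4.95% and 4.62% of the reads of the whole group at the 4 stages in order. With their reads added to GAPDH, GAPDHS was 9.18-fold below GAPDH at 3 weeks instead of above it, and 7.10-fold above it at 6 months (6.77 to 7.44). One read may be counted at several of these entries, so the sums may be too large and the interval too narrow. The fall of GAPDH at 3 weeks kept its direction with them added, to 0.181 of the E18 level. Of the 63 entries, 56 passed a filter of 1 RPKM in at least 1 library, and 44 of these were called lower and 0 higher at 3 weeks against E18, where 10.5% of all entries were lower and 32.0% higher. Many of them, such as GM10313 (1.92, 1.90, 0.147 and 0.335 RPKM over the 4 stages), reached 1 RPKM before birth alone. Having passed the filter, those could not be higher after birth. The entries may also hold the same reads as GAPDH, so the count is no support. Bases 181 to 270 of the GAPDH coding sequence are given with the aligned stretch of GAPDHS, capitals marking the 27 of 90 bases at which GAPDHS differs; the pseudogene GM12671 on chromosome 4 has the letters of GAPDH throughout, and GAPDHS shares 70.4% of its aligned coding bases with GAPDH.
GAPDHS: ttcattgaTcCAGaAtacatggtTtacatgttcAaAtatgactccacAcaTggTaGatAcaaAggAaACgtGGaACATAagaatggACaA
GAPDH: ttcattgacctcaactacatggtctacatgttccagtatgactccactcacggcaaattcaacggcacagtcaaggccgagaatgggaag

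PDHA2, the germ cell alpha subunit of pyruvate dehydrogenase, appeared at 3 weeks and did not climb further. It gave 0.0328 RPKM at E14 (3 reads, 0.00676 to 0.0958), 0.137 RPKM at E18 (11 reads, 0.0682 to 0.244), 29.9 RPKM at 3 weeks (28.8 to 31.2) and 26.4 RPKM at 6 months (25.3 to 27.5). PDHA2 was 219-fold higher at 3 weeks than at E18 (95% interval 122 to 440), and 6 months over 3 weeks gave 0.881 (0.831 to 0.934), a step of -0.18 on the log2 scale that was not called. Its direction at 6 months turned to 0.49 when libraries were rescaled by the median of ratios.

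PDHA1, the somatic alpha subunit on the X chromosome, was the single somatic member called lower at both postnatal steps. It stood at 11.2, 15.3, 3.34 and 1.04 RPKM at E14, E18, 3 weeks and 6 months. PDHA1 fell to 0.218 of its E18 level at 3 weeks (95% interval 0.196 to 0.243), and at 6 months to 0.312 of its 3-week level (0.255 to 0.378). The second fall, -1.09 on the log2 scale, was -0.64 after rescaling by the median of ratios. PDHA2 was 341-fold below PDHA1 at E14 (3 reads, 116 to 1655) and 112-fold below it at E18 (62.4 to 225), then 8.97-fold above it at 3 weeks (8.09 to 9.97) and 25.4-fold above it at 6 months (21.4 to 30.3). No pseudogene entry aligned to PDHA1 at 95% identity or more. MAP3K15, at 2.26, 3.74, 1.39 and 0.283 RPKM over the 4 stages, overlaps the end of PDHA1 on the opposite strand, and their reads cannot be told apart unless strand was used in counting. The coding sequences of PDHA2 and PDHA1 shared 75.6% of their aligned bases.

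ALDOA, the aldolase of muscle and many other tissues, was lowest at 3 weeks. It stood at 46.5 RPKM at E14 (95% interval 45.2 to 47.8), 58.6 RPKM at E18, 17.2 RPKM at 3 weeks and 44.8 RPKM at 6 months (43.4 to 46.1). ALDOA fell at 3 weeks to 0.293 of its E18 level (0.277 to 0.309) and was 2.61-fold higher at 6 months than at 3 weeks (2.46 to 2.76). Skeletal muscle markers summed to 203 RPKM in the E14 library and 47.3 RPKM at E18, and their part in the fetal levels of this muscle aldolase was not tested. ALDOART1 and ALDOART2, its retrocopies known from mouse spermatids, stood at 4.74, 7.69, 4.26 and 33.4 RPKM and at 3.81, 4.13, 1.94 and 19.3 RPKM over the 4 stages, both highest at 6 months. These copies share 93.9% and 91.7% of their aligned coding bases with ALDOA, so how far reads were shared between the 3 entries cannot be told from RPKM.

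**Figure D1:**
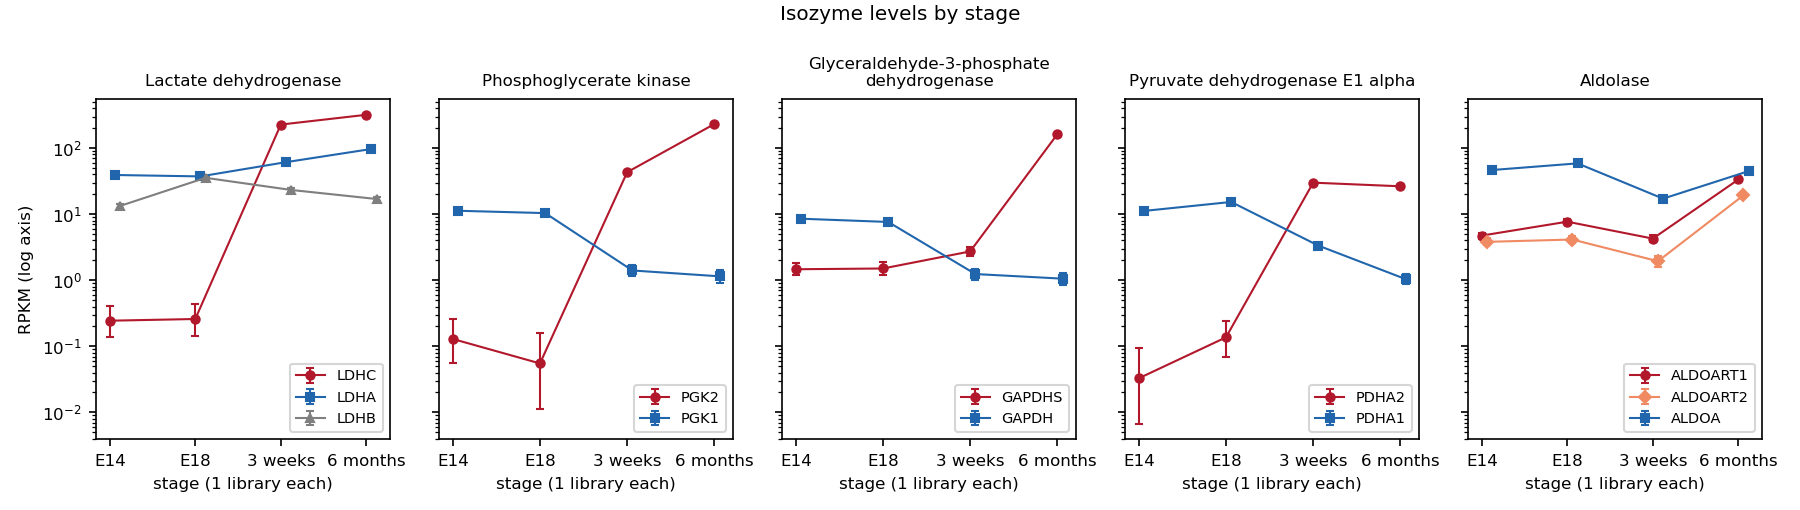
Level in RPKM (log axis) of each isozyme at E14, E18, 3 weeks and 6 months, 1 library a stage, with germ cell forms in red or orange, their somatic partners in blue or grey, and exact Poisson 95% intervals of the reads as error bars. LDHC, PGK2 and PDHA2 lay at 0.259 RPKM or less before birth and at 26.4 RPKM or more after it, while GAPDHS stayed at 2.73 RPKM at 3 weeks and reached 162 RPKM at 6 months.

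**Figure D2:**
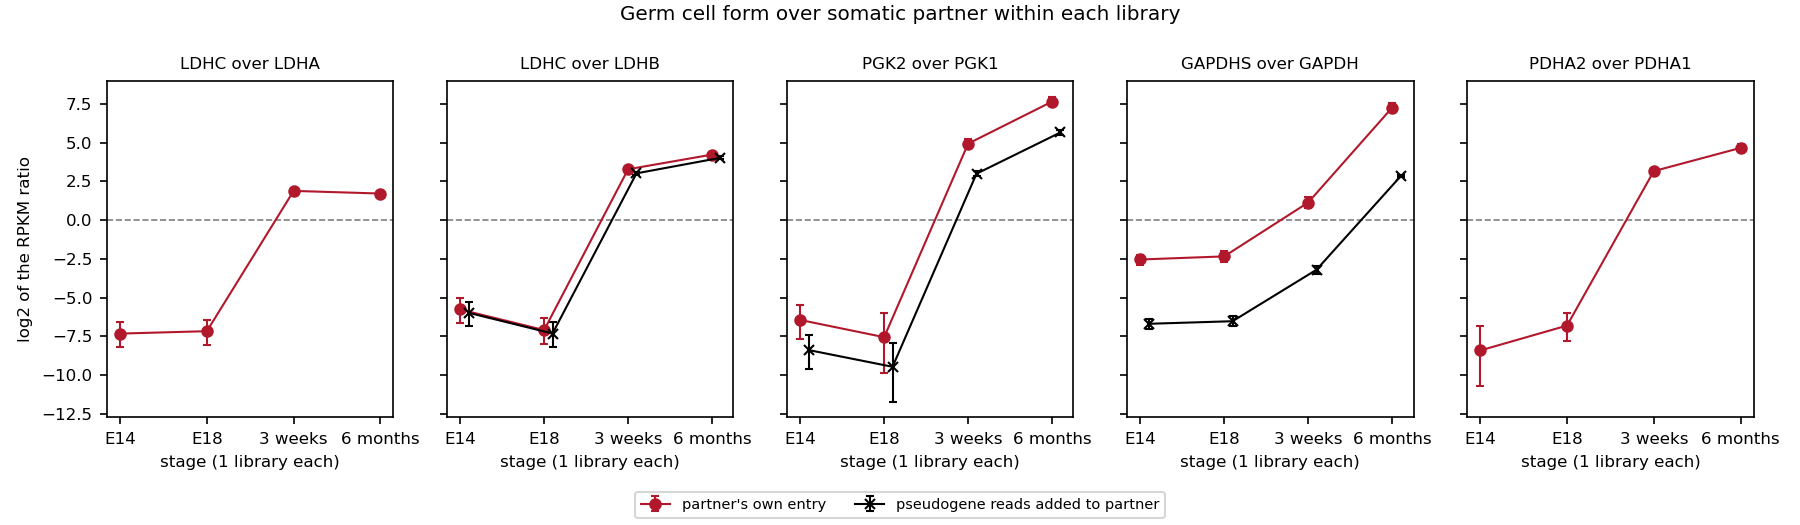
Log2 of the RPKM ratio of each germ cell form over a somatic partner at the 4 stages, 1 library a stage, with 95% Clopper-Pearson intervals; red circles use the partner's own entry, and black crosses add the reads of pseudogene entries at 95% identity or more to the partner, for the 3 pairs that have such entries. All 5 ratios lie below 0 (dashed) before birth and above it after birth, except GAPDHS over GAPDH at 3 weeks with pseudogenes added, which was -3.20. One read may be counted at several pseudogene entries, and the intervals with them added do not cover this.

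Over the steps between stages, 3 of 4 germ cell forms were called higher and 4 of 6 somatic forms lower between E18 and 3 weeks. At E18 against E14, 1 of 10 members was called higher (LDHB) and 0 lower, where 2.17% of all 42964 entries that reached 1 RPKM in at least 1 library were called higher and 1.34% lower. At 3 weeks against E18, 3 of 10 were higher (LDHC, PGK2 and PDHA2), near the share of 32.0% of all entries, and 4 of 10 were lower (PGK1, GAPDH, PDHA1 and ALDOA), where 10.5% of all entries were lower. Split by kind, 0 germ cell forms were lower, with a median difference of 5.08 over the 4, and 0 somatic forms were higher, with a median of -1.81 over the 6, beside a median of 0.46 over all entries. Markers of some other cells moved with the somatic forms, and those of others did not. All 10 stroma and contractile cell markers were lower at 3 weeks than at E18, with sums of 101 RPKM at 3 weeks and 1030.3 RPKM at E18. All 6 kidney markers were lower too, with 2.02 and 47.2 RPKM, and liver markers summed to 0.727 RPKM, against 64.9 RPKM. Of the kidney markers, 1, 6, 0 and 1 reached 1 RPKM at E14, E18, 3 weeks and 6 months. Most thus passed the filter through E18 alone and had to be lower, so the kidney count is no support. Of 12 Sertoli cell markers, 4 were higher and 2 lower, with sums of 196 RPKM at 3 weeks and 122 RPKM at E18. Of 8 Leydig cell markers, 1 was higher and 3 lower, with 71.9 and 139 RPKM. Epididymis markers summed to 66.4 RPKM at 3 weeks, against 1.28 RPKM at E18. The part of any of these cells in the fall of the somatic forms was not tested. At 6 months against 3 weeks, 3 of 10 were higher (PGK2, GAPDHS and ALDOA), where 9.73% of all entries were higher, and 1 of 10 was lower (PDHA1), where 14.1% of all entries were lower. LDHC, PGK2 and PDHA2 reached 1 RPKM in the 2 postnatal libraries alone, so having passed the filter they had to be higher after birth, and their share is no support.

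The scaling of the libraries changed some of these calls and no direction of a called member. With libraries rescaled over ribosomal protein genes, the median over all entries at 3 weeks against E18 was 1.05 instead of 0.46, GAPDHS (1.36) and LDHA (1.89) joined the higher members, PDHA1 (-0.86) and ALDOA (-0.54) were no longer called, and LDHB turned to 0.58. With the median of ratios, the median at 6 months against 3 weeks was 0.12 instead of -0.31, and LDHC (1.18) and LDHA (1.34) joined the higher members.

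Both X-linked somatic members fell at 3 weeks, as did the autosomal GAPDH and ALDOA. Of 509 protein-coding symbols of the X chromosome that reached 1 RPKM, 16.7% were lower and 16.1% higher at 3 weeks against E18, with a median difference of -0.17. Of 12120 autosomal ones, 13.1% were lower and 24.4% higher, with a median of 0.24. The differences of PGK1 (-2.24) and PDHA1 (-1.91) lay below both medians.

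Promoter sequences of the 3 germ cell forms that first appeared at 3 weeks are shown because these genes moved together there. All 10 members matched the RefSeq promoter table (build GRCm38.p6, the mm10 sequence), and each run below is the 150 bases before the RefSeq start, read on the gene's strand: chr7:46861113-46861262 (plus strand) for LDHC, chr17:40208610-40208759 (minus) for PGK2 and chr3:141212356-141212505 (minus) for PDHA2. For LDHC and PGK2 the GENCODE gene begins within the run. Capitals mark matches to any of 4 motifs, searched on both strands and chosen after the letters were seen: the cyclic AMP response element core TGACGT, the GC box GGGCGG, the CCAAT box CCAAT and the MYB motif AACNGTT.
LDHC: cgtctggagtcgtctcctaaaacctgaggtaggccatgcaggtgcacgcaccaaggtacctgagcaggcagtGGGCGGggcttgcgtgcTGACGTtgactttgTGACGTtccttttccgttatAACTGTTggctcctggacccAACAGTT
PGK2: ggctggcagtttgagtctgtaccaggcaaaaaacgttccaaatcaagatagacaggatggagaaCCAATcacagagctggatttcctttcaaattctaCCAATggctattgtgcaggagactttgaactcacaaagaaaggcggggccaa
PDHA2: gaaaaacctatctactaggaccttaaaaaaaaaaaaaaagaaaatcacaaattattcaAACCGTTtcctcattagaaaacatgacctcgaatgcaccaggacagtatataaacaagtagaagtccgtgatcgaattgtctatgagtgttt
The LDHC run held TGACGT with its first base 61 and 47 bases before the start, GGGCGG at 78, and AACNGTT at 27 and 7. A second, alternative start of LDHC in the table had no TGACGT in its window. The PGK2 run held CCAAT at 86 and 52, and the PDHA2 run held AACNGTT at 92. The somatic neighbour LDHA also held TGACGT, as overlapping matches on opposite strands with first bases 12 and 10 before a start. It had 3 matches to GGGCGG, and GAPDHS held TGACGT once, after its start. Of 32851 promoter windows of the table, 7.51% held TGACGT, 35.7% GGGCGG, 37.4% CCAAT and 4.45% AACNGTT, in windows of 250 bases before and 50 after the start. These matches are a description of the letters, and no binding was measured.

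Of 20 measured members of a list of 24 other glycolytic enzymes, 5 were higher and 6 lower at 3 weeks against E18, with a median of -0.46, where 32.0% of all entries were higher and 10.5% lower. LDHAL6B, a lactate dehydrogenase A-like gene without introns, stood at 214 RPKM at 3 weeks, against 0.546 RPKM at E18, and lies within TMEM242, which had 18.6 RPKM at 3 weeks and 7.19 RPKM at E18. PGAM2, the muscle phosphoglycerate mutase, gave 21.3 RPKM at 3 weeks, against 1.29 RPKM at E18, and the phosphofructokinase PFKM gave 13.9 RPKM, against 5.36 RPKM. ENO4, an enolase of the sperm tail, gave 4.45 RPKM at 3 weeks, against 0.0341 RPKM at E18. LDHAL6B and ENO4 reached 1 RPKM after birth alone. Having passed the filter they had to be higher, so their place among the 5 is no support. On the lower side were the liver phosphofructokinase PFKL (2.31 RPKM at 3 weeks, against 12.5 RPKM at E18), the triose isomerase TPI1 (11.6, against 44.5 RPKM), the enolase ENO1 (3.85, against 15.2 RPKM) and the pyruvate kinase PKM (18.5, against 63.9 RPKM). At E18 against E14 the list had 1 call, PKLR, the pyruvate kinase of liver and red cells, which was lower with 0.560 RPKM at E18, against 2.61 RPKM at E14. Beside it, liver markers summed to 64.9 RPKM at E18, against 307 RPKM at E14, and red cell markers to 3707 RPKM, against 4897 RPKM, and their part in this value was not tested.

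At 6 months against 3 weeks, 7 of these 20 enzymes were higher and 0 lower, with a median of 0.15, where 9.73% of all entries were higher and 14.1% lower. HK1, the hexokinase that starts glycolysis, stood at 40.2 RPKM at 6 months, against 3.39 RPKM at 3 weeks, and GPI1, the glucose phosphate isomerase, at 17.5 RPKM, against 2.10 RPKM. ALDOART1 and ALDOART2, given above, were the other two of the 4 largest. TPI1, with 47.9 RPKM at 6 months, against 11.6 RPKM at 3 weeks, and PKM, with 39.8 RPKM, against 18.5 RPKM, fell and rose at the same steps as ALDOA. Reads that these other enzymes may share with pseudogenes of their own were not examined.

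Of 13 listed genes of the pyruvate dehydrogenase complex and its regulators, all measured, 6 were higher and 0 lower at 3 weeks against E18, with a median of 0.59, where 32.0% of all entries were higher and 10.5% lower. The other 7 were not called, among them MPC1, a subunit of the mitochondrial pyruvate carrier (2.50 RPKM at 3 weeks, against 2.23 RPKM at E18). PDHB, the beta subunit that pairs with PDHA1 or PDHA2, stood at 40.6 RPKM at 3 weeks, against 10.7 RPKM at E18. DLAT, the acetyltransferase core, gave 15.0 RPKM, against 3.58 RPKM, the binding protein PDHX 6.95 RPKM, against 2.32 RPKM, and MPC2, the other subunit of the carrier, 7.71 RPKM, against 2.37 RPKM. The regulator PDK2, also among the 6, reached 1 RPKM after birth alone. Having passed the filter it had to be higher, so its place in the count is no support. PDHA1, the other alpha subunit that pairs with PDHB, fell at the same step. From 3 weeks to 6 months MPC2 was higher (16.6, against 7.71 RPKM) and DLD, the dihydrolipoamide dehydrogenase, lower (3.52, against 8.18 RPKM).

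Among 11 measured genes of glucose and lactate transport, 4 were higher and 3 lower at 3 weeks against E18, with a median of 0.41, the higher share being near the 32.0% of all entries, of which 10.5% were lower. The glucose transporter SLC2A3 gave 68.7 RPKM at 3 weeks, against 1.14 RPKM at E18, and the fructose transporter SLC2A5 21.2 RPKM, against 0.232 RPKM. SLC2A5 reached 1 RPKM after birth alone. Having passed the filter it had to be higher, so its place among the 4 is no support. The monocarboxylate transporter SLC16A7 gave 11.6 RPKM at 3 weeks, against 1.70 RPKM at E18, and 52.7 RPKM at 6 months. EMB, a chaperone of such transporters, gave 6.91 RPKM at 3 weeks, against 1.94 RPKM at E18, and was lower again at 6 months with 1.53 RPKM. The other isoforms SLC16A3 (1.10, against 5.60 RPKM), SLC2A4 (0.505, against 2.84 RPKM) and SLC2A1 (0.702, against 2.74 RPKM) were lower at 3 weeks than at E18. Between 3 weeks and 6 months 3 were higher, SLC16A7, SLC2A5 (44.9, against 21.2 RPKM) and SLC2A8 (8.59, against 2.86 RPKM), and EMB alone was lower.

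**Figure D3:**
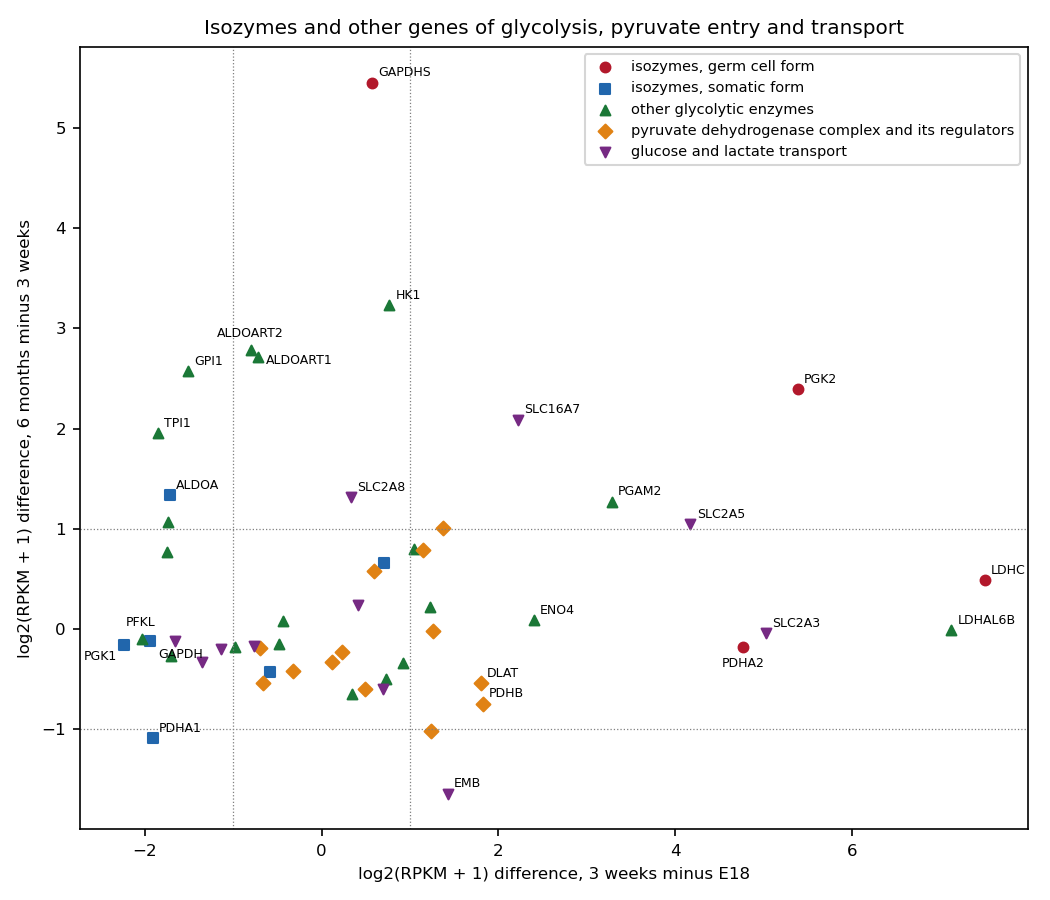
Difference of log2(RPKM + 1) at 3 weeks minus E18 (horizontal) and at 6 months minus 3 weeks (vertical) for the germ cell forms (red circles), the somatic forms (blue squares) and the other measured genes of glycolysis, the pyruvate dehydrogenase complex and transport, 1 library a stage; dotted lines mark 2-fold. LDHC (7.50), PGK2 (5.39) and PDHA2 (4.77) lie far to the right, GAPDHS (0.57, 5.45) stands alone at the top, and PGK1, GAPDH and PDHA1 lie at the left below 0.

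The change of order between an X-linked gene and its autosomal copy, seen for PGK2 and PDHA2, was also looked for in 9 other pairs of a retrocopy and its X-linked source. The retrocopy stood above its X-linked partner in 7 of 9 pairs at 3 weeks and 9 of 9 at 6 months, against 1 of 9 in either fetal library. That one was CSTF2T, above its partner at all 4 stages. Reads that these genes may share with pseudogenes or with each other were not examined, so the order within a pair is that of the entries alone. Of the 9 retrocopies, 6 were higher and 0 lower at 3 weeks against E18, where 32.0% of all entries were higher. RPL10L, RBMXL2, GYKL1, TIMM8A2 and PRPS1L1, among those 6, were below 1 RPKM in both fetal libraries and passed the filter through the postnatal ones alone, so they had to be higher and the count is no support. Of 10 X-linked sources, 0 were higher and 2 lower, with a median of -0.34, where 10.5% of all entries were lower. At 6 months against 3 weeks, 4 of 9 retrocopies and 0 of 10 sources were higher, and 0 of either were lower, where 9.73% of all entries were higher and 14.1% lower. UBL4B, among those 4, passed the filter through the 6-month library alone, so it had to be higher and its place in the count is no support.

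By the entries alone, the level after birth differed widely between these pairs. GYKL1, a glycerol kinase copy, stood at 42.7 RPKM at 3 weeks and 90.0 RPKM at 6 months, against 0.810 and 0.119 RPKM of GYK. RPL10L, a ribosomal protein copy, gave 19.7 and 30.8 RPKM, against 0.846 and 0.408 RPKM of RPL10, and PRPS1L1, a phosphoribosyl pyrophosphate synthetase copy, 20.4 and 24.0 RPKM, against 3.59 and 2.20 RPKM of PRPS1. RBMXL2 gave 6.50 and 16.2 RPKM, against 2.08 and 0.768 RPKM of RBMX, and CSTF2T 14.6 and 7.09 RPKM, against 2.48 and 3.51 RPKM of CSTF2. UBL4B, like GAPDHS, came late, with 0.235 RPKM at 3 weeks and 67.7 RPKM at 6 months, against 1.52 and 1.05 RPKM of UBL4. G6PD2, a copy of the first enzyme of the pentose phosphate pathway, was late too, with 1.77 and 9.69 RPKM, against 2.23 and 1.29 RPKM of G6PDX. The retrocopies lowest at 6 months were UTP14B, with 3.26 and 2.06 RPKM, against 1.21 and 0.717 RPKM of UTP14A, and TIMM8A2, with 3.67 and 3.08 RPKM, against 1.10 and 0.393 RPKM of TIMM8A1.

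**Figure D4:**
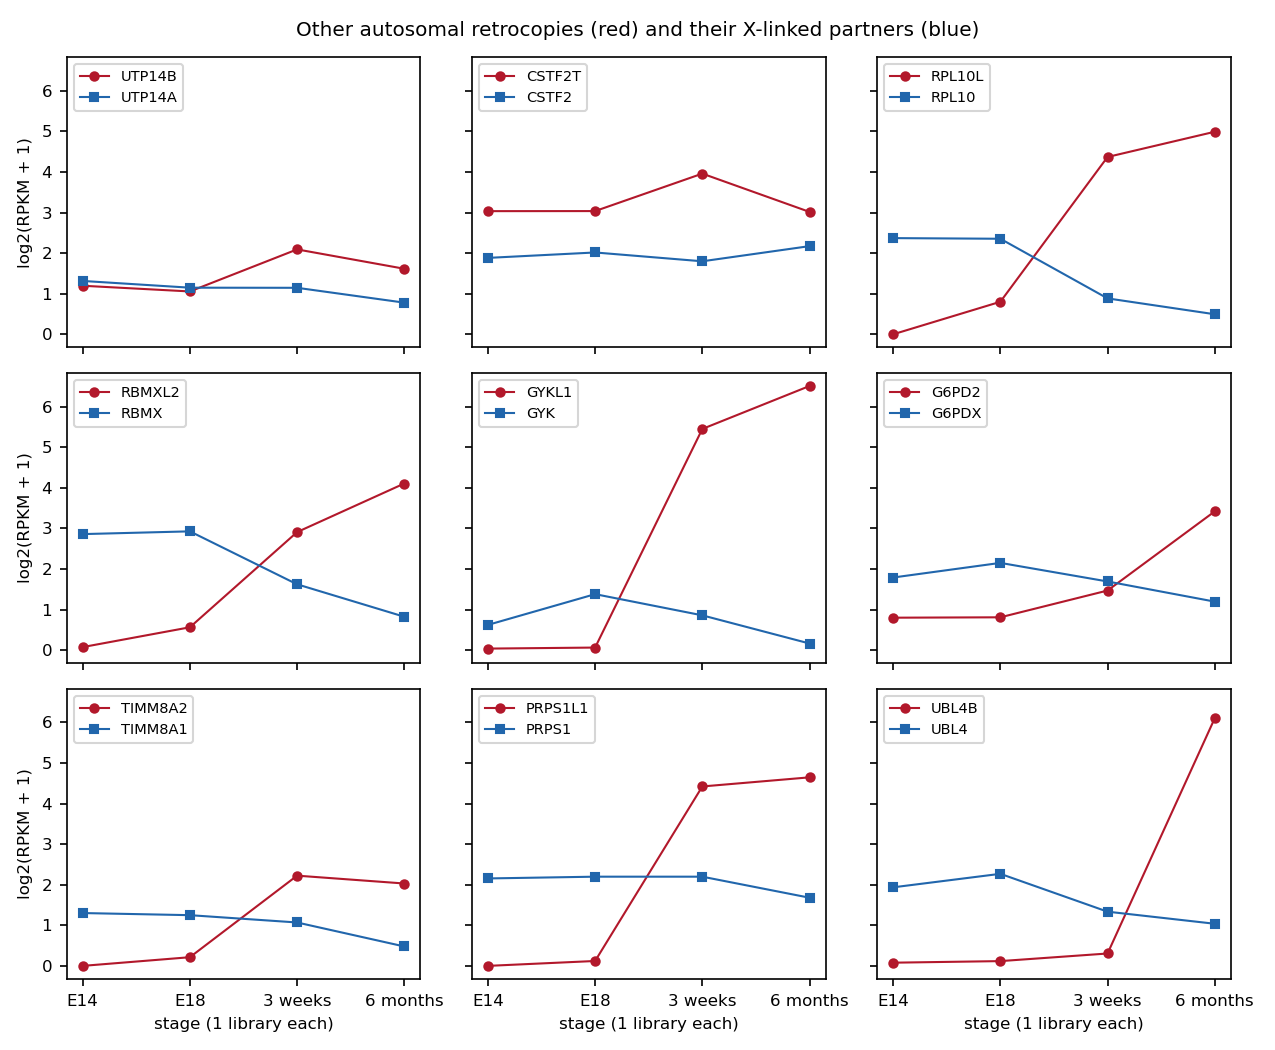
Level as log2(RPKM + 1) of 9 autosomal retrocopies (red circles) and their X-linked sources (blue squares) at E14, E18, 3 weeks and 6 months, 1 library a stage. At 6 months the red point is above the blue one in all 9 panels, and at 3 weeks in 7, with UBL4B and G6PD2 still below.

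For each germ cell form, the 3 protein-coding symbols nearest in log2(RPKM + 1) over the 4 libraries were found among 3087 symbols with a mean of at least 5 RPKM, by Euclidean distance. Nearest to LDHC were 4922502D21RIK (distance 0.30), SPATA4 (0.34) and FHL4 (0.50), and nearest to PGK2 were TCP11 (0.62), ATP8B3 (0.74) and GM26657 (0.81). PDHA2 had close neighbours in WFDC15A (0.06), ANKRD36 (0.10) and SPAG6 (0.14). GAPDHS had more distant ones in 2610318N02RIK (0.84), FAM166A (1.05) and CCDC91 (1.19). GAPDHS, at 1.47, 1.50, 2.73 and 162 RPKM over the 4 stages, stood for example beside FAM166A, at 1.00, 1.04, 5.47 and 111 RPKM. Among the somatic forms, ALDOA was nearest to the glycolytic PKM (0.45) and TPI1 (0.67), and LDHA to BSG (0.54), a chaperone of lactate transporters. With 4 libraries such likeness is a description of 4 values.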

How the data were processed

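RNA of 4 testis libraries (1 each at E14, E18, 3 weeks and 6 months) was sequenced. Per the labels' protocols, ribosomal RNA was depleted, polyadenylated RNA isolated and a directional kit used, though the labels differ on whether polyadenylated RNA was selected. The authors deposited RPKM per entry; per the submitters' processing notes, TopHat2 and mm10 were used; the sources used here do not name the counter, the annotation or the treatment of strand and multiply mapped reads.

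Whole reads were recovered from the steps of the RPKM values of 501 of 529 listed genes and pseudogenes (94.7%; the other 28 were at 0), within a relative tolerance of 1e-09. Depth was 33952471 to 38903334 reads, so 3 reads in 1 kb correspond to 0.0771 to 0.0884 RPKM. Intervals are exact at 95%, Poisson for levels and Clopper-Pearson for ratios. Those with pseudogene reads added take each read as counted once. Differences used a pseudocount of 1, a minimum of 1 RPKM in at least 1 library and a 2-fold limit, with no test. The steps were run on simulated data for 3 weeks against E18: of 400 genes, all 200 changed 4-fold were called, and 0% of the others. Those genes had several exons and were above 1 RPKM in all 4 libraries, and their reads varied by counting error alone. With a 4-fold change against a 2-fold limit, this outcome was nearly fixed. It checks the steps and gives no rate of false calls for these libraries. Pseudogenes were aligned with BLAST+ 2.17.0; Python 3.11.15, pandas 2.3.3 and SciPy 1.17.1 did the rest.

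The named genes were the 10 members, up to 4 of each pathway list with the largest called difference in each direction per comparison, every retrocopy pair (ZFA was not matched, so 9 of 10 pairs), and the 3 symbols nearest each germ cell form. PKM and TPI1 at 6 months, PDK2 and BSG were added after their values were seen. Members and lists were chosen with earlier results of these data known. Alternatives were other pseudocounts, filters, limits and scalings, and pseudogene reads added to the somatic partner. One glycolytic enzyme is not reported here.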

Additional observations from a re-analysis of the deposited data

How the results depend on the processing

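No paired analysis was possible because each stage has 1 library, and for the same reason no library could be left out. The counts over all entries moved with the settings. At E18 against E14, 934 higher and 574 lower became 3204 and 1768 with a pseudocount of 0.1, 511 and 283 with a minimum of 5 RPKM, 118 and 90 with a 4-fold limit, and 448 and 207 over protein-coding symbols alone; rescaled over ribosomal protein genes, 510 were higher. At 3 weeks against E18, 13742 higher and 4532 lower became 6922 and 852 with a 4-fold limit, 24674 and 1168 rescaled over ribosomal protein genes, and 3053 and 1671 over protein-coding symbols alone; 7687 were lower with a pseudocount of 0.1 and 2652 with a minimum of 5 RPKM. At 6 months against 3 weeks, 4182 higher and 6062 lower became 1376 and 775 with a 4-fold limit, 7520 and 1863 with the median of ratios, and 1208 and 996 over protein-coding symbols alone; 13337 were lower with a pseudocount of 0.1, and 2367 higher with a minimum of 5 RPKM. The higher share of all calls was 61.9%, 75.2% and 40.8% in the 3 comparisons in order; the median of ratios gave 47.9% in the first and 80.1% in the last, ribosomal protein genes gave 95.5% in the second, and an equal sum over protein-coding symbols gave 63.7% in the second and 29.5% in the last. Of the members, 5 were higher and 2 lower at 3 weeks against E18 over ribosomal protein genes, and 5 higher and 0 lower at 6 months against 3 weeks with the median of ratios. Of 120 alternative member differences, 62 stayed within the counting interval and 58 moved, and no called one changed sign.

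Adding pseudogene reads moved the log2 ratios to a somatic partner. Added by name, they gave 1.80 and 1.64 for LDHC over LDHA at 3 weeks and 6 months (1.89 and 1.72 without) and -7.72, 3.66 and 6.27 for PGK2 over PGK1 at E14, 3 weeks and 6 months (-6.44, 4.94 and 7.66 without). Added by alignment, an alternative chosen after seeing the data, they gave -8.39, 3.00 and 5.66 for PGK2 over PGK1 at those stages, 3.02 and 4.03 for LDHC over LDHB at 3 weeks and 6 months (3.29 and 4.23 without), and -6.69, -6.53, -3.20 and 2.83 for GAPDHS over GAPDH at the 4 stages (-2.54, -2.34, 1.14 and 7.26 without), so that 3 weeks reversed. PDHA2 over PDHA1 at E14 was -6.41 with a pseudocount of 0.1 and -8.41 without, on 3 reads.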

Other observations

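Entries that resemble GAPDH did not all follow it. Of 281 pseudogene entries that align best to GAPDH at 80% identity or more, 78 reached 1 RPKM in at least 1 library. Of these 78, 48 were lower and 3 higher at 3 weeks against E18, where 10.5% of all entries were lower and 32.0% higher. Many of the lower ones reached 1 RPKM before birth alone, so they could not be higher and the count is no support. At 6 months against 3 weeks 5 of the 78 were higher and 0 lower, where 9.73% of all entries were higher and 14.1% lower. GM6981 on chromosome 9 (94.2% identity to GAPDH) stood at 0.947, 0.698, 7.51 and 21.3 RPKM at E14, E18, 3 weeks and 6 months. GM4804 on chromosome 12 (92.4%) stood at 0.129, 0.205, 2.39 and 16.4 RPKM, and 4930448K20RIK on chromosome 4 (83.7%) at 0.0154, 0.0175, 0.0176 and 8.47 RPKM. These 3 entries were chosen after their values were seen. GM6981 and GM4804 were called higher at both postnatal steps, and 4930448K20RIK at 6 months against 3 weeks. All 3 reached 1 RPKM after birth alone, so having passed the filter they had to be higher there. GM5514, the copy of LDHB at 98.0% identity, kept the pattern of LDHB with 10.9, 30.2, 23.9 and 13.4 RPKM.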
